A study of Mus musculus with 12 samples.

Results

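The HoxD cluster, on chromosome 2 of the mouse, was followed as a single locus through 10 H3K27me3 ChIP-seq peak lists made from immortalized mouse embryonic fibroblasts (iMEFs). Its members were the 9 annotated genes Hoxd13, Hoxd12, Hoxd11, Hoxd10, Hoxd9, Hoxd8, Hoxd3, Hoxd4 and Hoxd1, taken by name from GENCODE M1 on mm9, out of 22367 protein-coding genes. All cells came from C2, 1 clone isolated by limiting dilution from c-Myc transformed Ezh2 flox/Δ; ROSA26-CreERT2 fibroblasts of mid-gestation embryos, in which 4-hydroxytamoxifen activates the recombinase and removes Ezh2. The sample titles give the genotypes as Ezh2 WT/WT and Ezh2 -/-, referred to as wild type and knockout. As the methods describe the clone as flox/Δ and not WT/WT, wild type was taken to mean its cells before deletion. Every group, wild type included, carries the c-Myc retrovirus. Experiment 1, with an Active Motif antibody, had 2 wild-type and 2 knockout libraries. Experiment 2, with antibody clone 7b11 and another sequencing platform, had 2 wild-type libraries, 2 knockout libraries, and 1 library each of an Ezh1 and an Ezh2 pre-rescue, in which a retrovirus expressed the Flag-tagged enzyme before endogenous Ezh2 was deleted. A library is the replicate. Nothing in the labels says that replicates came from separate cultures, so p-values measure the spread between libraries, which may be technical. Antibody, platform and experiment cannot be told apart, so values of the 2 experiments are given side by side and were not compared by a test. Tests over the 4 wild-type libraries used a difference within each library and combined both experiments. The lists hold no transcript or protein measurement, so the loss of Ezh2 itself was not checked here.

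HOX genes encode homeodomain transcription factors that give cells their position along the body axis and the limbs, and their order on the chromosome follows the order in which they are used along the embryo. The Polycomb complex PRC2, through its alternative catalytic subunits Ezh2 and Ezh1, trimethylates lysine 27 of histone H3 and keeps HOX genes silent where they are not in use. Wide H3K27me3 domains over HOX clusters are a textbook feature of fibroblasts, which retain the positional HOX program of the tissue they came from.

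All 9 genes lie on the plus strand, between 74506367 and 74603200 (mm9), an interval of 96834 bp. Hoxd13, which patterns digits and genitalia, comes first, and its transcription start site (TSS, where the annotated gene begins) is the origin of the distances below. Hoxd12 starts 6619 bp further on, Hoxd11 at 11082 bp, Hoxd10 at 22780 bp and Hoxd9 at 29370 bp. These 5 are related to Drosophila Abdominal-B (AbdB class) and act in limb, kidney and posterior axis. The other 4 members belong to more anterior paralog groups. Hoxd8 starts at 36305 bp, Hoxd3, a gene of the cervical vertebrae, at 43619 bp, Hoxd4, a gene of the hindbrain and neck, at 53668 bp within the annotated span of Hoxd3, and Hoxd1, known in sensory neurons, at 94670 bp. Evx2, another homeobox gene, precedes Hoxd13, and Mtx2, a mitochondrial transport gene, follows Hoxd1.

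The sequences below are those on which the results turn, all on the plus strand of mm9 with each CpG (the motif CG, which reads the same on both strands) in capitals. The first is the stretch under a peak in both knockout libraries of experiment 1 (chr2:74519073-74519299, 227 bp, within an intron of a Hoxd11 transcript). The second is the central part (chr2:74516901-74517100) of a stretch of 600 bp under a peak in both wild-type libraries of experiment 2, which ends before Hoxd11. The others are the 100 bases before a TSS. For Hoxd13 (chr2:74506267-74506366) and Hoxd9 (chr2:74535637-74535736), the TSS lay in a break of the mark in wild type of experiment 1. For Hoxd12 (chr2:74512886-74512985) and Hoxd10 (chr2:74529047-74529146), the TSS lay under the mark in those libraries. For Hoxd8 (chr2:74542572-74542671), the promoter had no peak in any library.
Knockout stretch: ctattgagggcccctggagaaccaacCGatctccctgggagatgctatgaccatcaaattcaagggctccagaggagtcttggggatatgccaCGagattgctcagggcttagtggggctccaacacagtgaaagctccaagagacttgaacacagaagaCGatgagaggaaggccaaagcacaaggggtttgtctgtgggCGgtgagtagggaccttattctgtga
Wild-type stretch of experiment 2: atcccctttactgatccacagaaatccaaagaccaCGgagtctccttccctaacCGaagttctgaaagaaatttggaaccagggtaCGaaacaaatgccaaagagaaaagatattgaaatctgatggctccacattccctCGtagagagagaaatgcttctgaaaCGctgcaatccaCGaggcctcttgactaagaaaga
Hoxd13: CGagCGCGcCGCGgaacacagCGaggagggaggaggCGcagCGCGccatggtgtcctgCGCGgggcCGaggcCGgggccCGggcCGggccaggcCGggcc
Hoxd12: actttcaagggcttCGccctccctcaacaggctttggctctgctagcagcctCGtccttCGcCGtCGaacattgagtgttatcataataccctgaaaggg
Hoxd10: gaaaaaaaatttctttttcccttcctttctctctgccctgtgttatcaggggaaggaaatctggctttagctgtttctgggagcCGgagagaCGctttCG
Hoxd9: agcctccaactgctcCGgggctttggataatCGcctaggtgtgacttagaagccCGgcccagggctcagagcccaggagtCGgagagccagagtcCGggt
Hoxd8: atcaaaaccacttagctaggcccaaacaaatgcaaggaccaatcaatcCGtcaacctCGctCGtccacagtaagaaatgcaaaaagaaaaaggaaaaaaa

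Hoxd13 had 16 CpG in its 100 upstream bases, a number reached by 3.90% of 32851 RefSeq promoters (GRCm38.p6) over the same length, in which the median is 3. Hoxd12 and Hoxd9 had 5 each (38.9% of promoters had as many or more), and Hoxd10 and Hoxd8 had 3 each (51.2%). The knockout stretch had 4 CpG, or 17.6 per kb, and a GC content of 52.9%, beside 28.0 CpG per kb and 49.4% for the cluster.

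In wild-type iMEFs of experiment 1, H3K27me3 lay over the AbdB-class end of the cluster and largely stopped after Hoxd9. Peaks covered 32.9% of the cluster in replicate 1 and 32.7% in replicate 2 (32.8% ± 0.109, SD, n = 2). From Hoxd13 to the end of Hoxd9, a segment of 31899 bp, they covered 87.9% and 88.9% (88.4% ± 0.707). Over the remaining 64935 bp, from Hoxd9 to Hoxd1, they covered 5.87% and 5.15% (5.51% ± 0.510). The first segment thus held 88.0% and 89.5% of all marked bases of the cluster. Upstream the mark went on past Evx2. It covered 81.9% and 82.3% of the 15318 bp that hold Evx2 and the stretch from it to Hoxd13. Of the 73556 bp from Lnp, a gene of the endoplasmic reticulum, to Evx2, it covered 50.3% and 63.7%. Downstream, between Hoxd1 and Mtx2, it covered 5.58% and 9.23%.

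**Figure D1:**
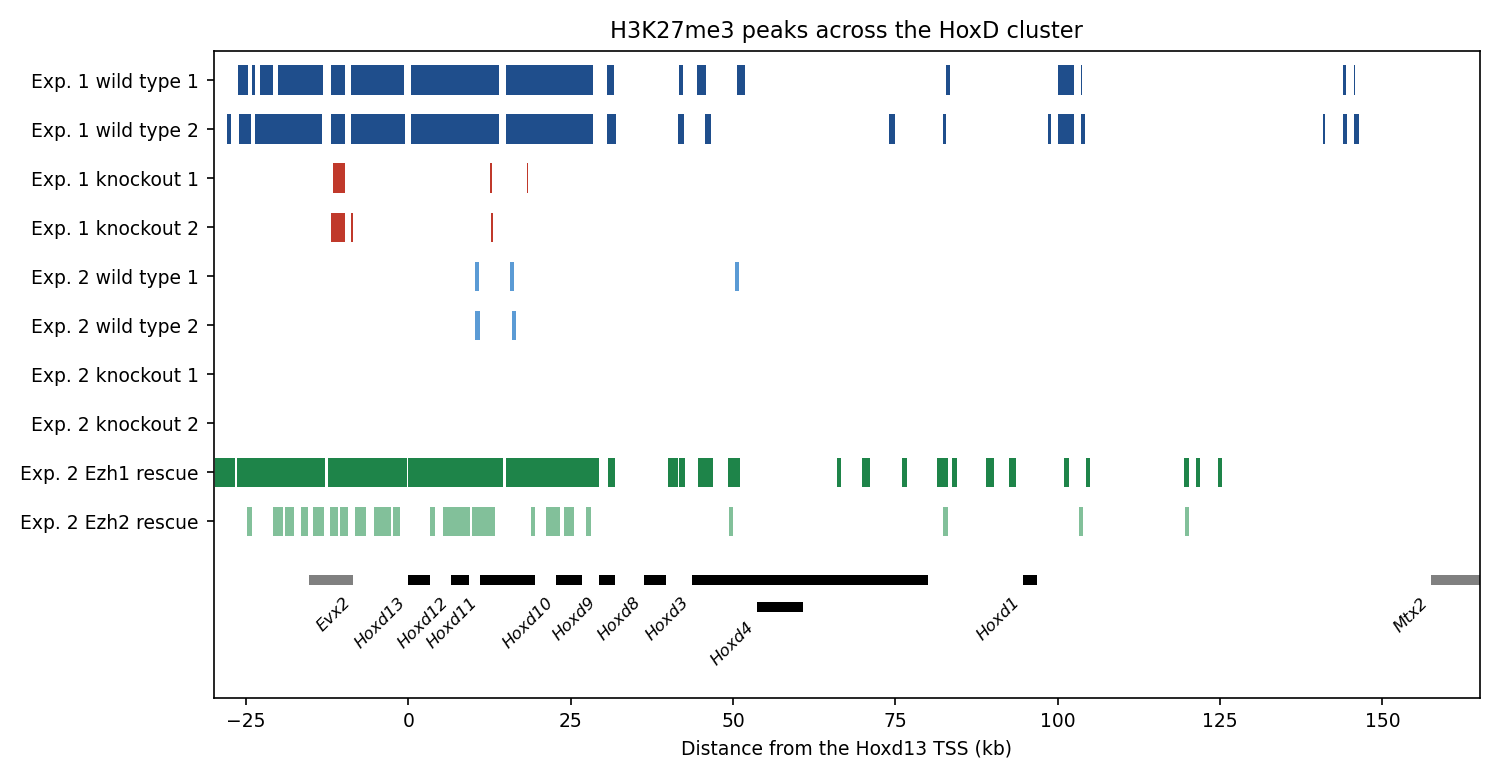
H3K27me3 peaks along the HoxD locus, plotted as distance from the Hoxd13 TSS (kb, x axis) with 1 row for each of the 10 libraries. Bars are peaks without height, black boxes are the 9 members and gray boxes the neighbors. Wild-type peaks of experiment 1 form wide blocks up to Hoxd9, the Ezh1 rescue fills the same blocks, the Ezh2 rescue holds narrower peaks, and the knockout libraries of experiment 2 have no peak here.

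The block was made of few and very wide peaks. Each wild-type library of experiment 1 had 7 peaks in the cluster, of which 2 exceeded 10 kb. The first ran from 434 to 14016 bp after the Hoxd13 TSS in replicate 1 (13583 bp wide) and from 436 to 14000 bp in replicate 2 (13565 bp). It spanned Hoxd12 and the start of Hoxd11. The second, 13437 and 13453 bp wide, ran from the middle of Hoxd11 past Hoxd10. The third widest, of 1275 bp in replicate 1, lay at the start of Hoxd3, and in replicate 2, of 1462 bp, over Hoxd9. Of the bases marked in either replicate 82.6% were marked in both (28742 bp).

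The mark was interrupted at 3 places, and these coincided in wild type of experiment 1 and in the Ezh1 rescue. Inside the block, the bases free of peaks in both wild-type libraries of experiment 1 and in the Ezh1 rescue formed gaps of 150 bp next to the Hoxd13 TSS (74506151 to 74506300), 400 bp near the start of the first coding transcript of Hoxd11 (74520951 to 74521350), and 1179 bp at Hoxd9 (74535751 to 74536929). Their GC contents were 70.0%, 73.8% and 68.4%, with 133, 110 and 103 CpG per kb. Wild-type breaks were wider, at 1047 and 976 bp by Hoxd13, 1016 and 1037 bp in Hoxd11, and 2173 and 2072 bp at Hoxd9. Between Hoxd13 and Hoxd9, GC content was 48.9% under peaks and 65.9% outside them in wild-type replicate 1, 48.9% and 66.9% in replicate 2, and 49.97% and 66.8% in the Ezh1 rescue. With Ezh2 it was 51.3% under peaks and 50.7% outside. Whether GC-rich fragments were recovered less well was not tested.

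At single promoters (TSS ± 2500 bp, 5001 bp) the values followed the same boundary. The Hoxd12, Hoxd11 and Hoxd10 promoters were fully covered in both wild-type libraries of experiment 1. That of Hoxd13 was covered to 79.1% and 80.5%, and that of Hoxd9 to 52.3% and 58.6%. The TSS base itself was under a peak for 3 members (Hoxd12, Hoxd11, Hoxd10), while the nearest peak began 434 and 436 bp from the Hoxd13 start and 901 and 880 bp from the Hoxd9 start. Accordingly the Hoxd9 value rested on the outer part of the window and was 5.52% within 1000 bp of the TSS, and that of Hoxd13 was 49.5%. For Hoxd11 the gene start is that of a noncoding transcript. At the first coding transcript, 2607 bp further on and added as an alternative after the data were seen, coverage was 79.5%.

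Toward the anterior end the promoters carried little. Hoxd3 was covered to 37.4% and 27.8% (32.6% ± 6.74), which came to 2.67% within 1000 bp of the TSS and to 12.7% when narrower peaks than 1000 bp were dropped. Hoxd4 was covered to 14.6% in replicate 1 and had no peak in replicate 2, so its presence differed between replicates. Hoxd1 had none in either. Neither did Hoxd8, whose nearest peaks lay 4648 and 4281 bp away, although it had the most CpG of the 9 promoters (57.0 per kb, against 32.0 at Hoxd12 and Hoxd10, 24.4 at Hoxd11 and 41.0 at Hoxd13). A marked promoter, 1 with at least 1 bp under a peak, was therefore seen in both libraries for 6 of 9 members (Hoxd13, Hoxd12, Hoxd11, Hoxd10, Hoxd9 and Hoxd3), while 20.1% of all protein-coding genes met this rule. Promoters covered to over 90% made up 1.56% and 2.39% of all genes in these libraries.

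**Figure D2:**
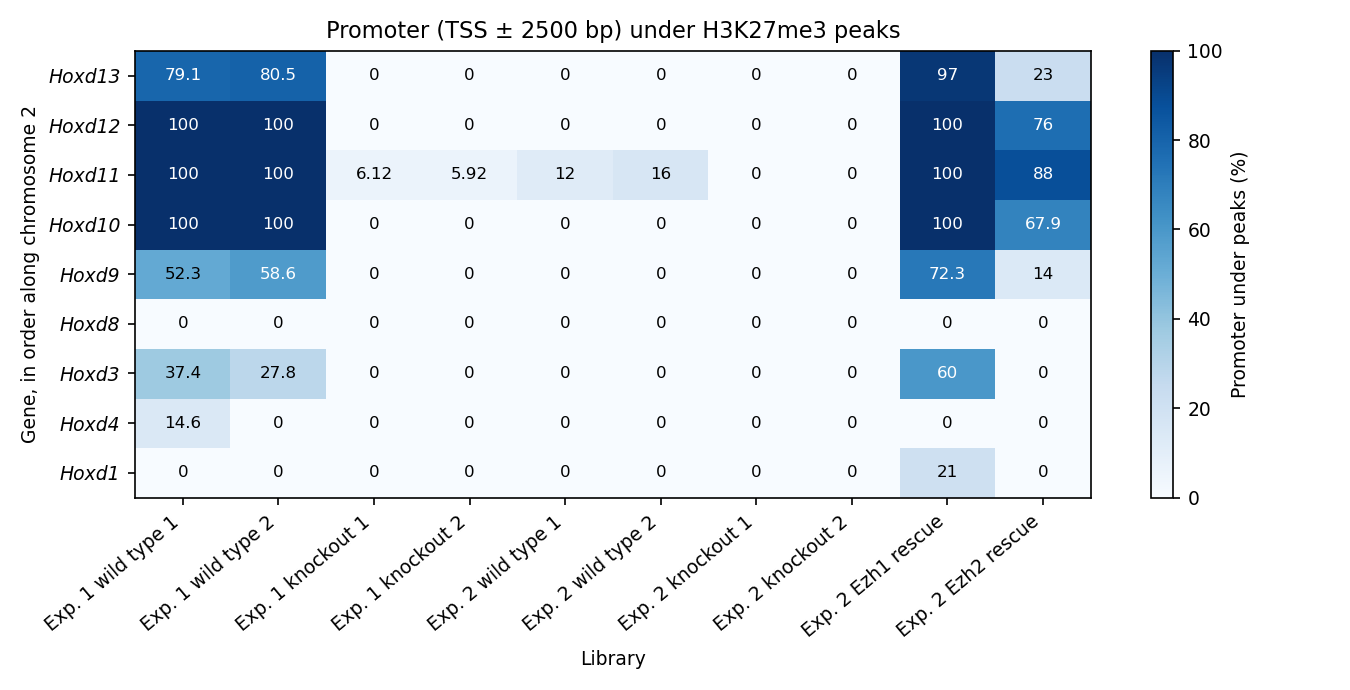
Percent of each promoter (TSS ± 2500 bp) under H3K27me3 peaks, with the 9 genes in chromosomal order (rows) and the 10 libraries (columns). Coverage is complete at Hoxd12, Hoxd11 and Hoxd10 in wild type of experiment 1 and in the Ezh1 rescue, and Hoxd8 is at 0 throughout.

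To set the posterior against the anterior genes within each library, the mean promoter coverage of the 5 AbdB-class members was compared with that of the other 4. It was 86.3% against 12.99% in wild-type replicate 1 of experiment 1 and 87.8% against 6.95% in replicate 2. In experiment 2 it was 2.40% and 3.20% against 0. The difference was positive in 4 of 4 wild-type libraries, with a mean of 39.9 percentage points (exact sign-flip permutation test, two-sided p = 0.125, the smallest that 4 libraries allow). Its size came from experiment 1: without wild-type replicate 2 of that experiment the mean was 26.3. With only peaks of at least 1000 bp, wild type of experiment 2 had none at these promoters. The mean was then 41.0, with two-sided p = 0.5 by the exact sign-flip permutation test. In the other clusters, of the 11 genes of groups 9 to 13 in HoxA, HoxB and HoxC, 11 were marked in both wild-type libraries of experiment 1, with a median coverage of 93.6%. Of the 19 genes of groups 1 to 8, 7 were marked, with a median of 0. Of these 7, 6 lie in HoxB and the other is Hoxa7. HoxB did not show the boundary at group 9. Hoxb1 was covered to 100% in both libraries and Hoxb8 to 85.1% and 81.7%, beside 87.2% and 100% for Hoxb9. Hoxb7 was covered to 85.1% and 81.7%, and Hoxb5 and Hoxb6 to 100%. From Hoxb4 toward the anterior end coverage was low apart from Hoxb1. Hoxb4 was covered to 9.56% and 5.60%, and Hoxb2 and Hoxb3 had no peak.

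After deletion of Ezh2 little of this was left in the lists. In knockout iMEFs of experiment 1, peaks covered 0.471% and 0.306% of the cluster (0.388% ± 0.117), 32.4 percentage points below wild type. Both wild-type values lay above both knockout values, but 2 against 2 libraries cannot give a two-sided p below 0.33, which is the value obtained (exact permutation test). Promoter coverage was higher in both wild-type than in both knockout libraries for the same 6 of 9 members, beside 19.6% of all genes. Of these 6 marked promoters, 5 had no knockout peak, and the share among all marked genes was 92.4%, so the members were close to the background here. Relative to the genome, HoxD was covered 6.18 and 4.91 times as much as the average base in wild type and 0.514 and 0.143 times in the knockout, whose lists still covered 0.915% and 2.13% of the genome. By the methods, knockout reads were scaled down according to the DNA recovered in the ChIP. The lists do not show whether peaks were called on scaled reads, and the part of this step in the difference was not tested.

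The exception was Hoxd11. Its promoter was covered to 6.12% and 5.92% in the knockout libraries, the only 1 of 9 members with a peak in both, beside 4.47% of all genes. In replicate 1 the peak was 306 bp (74518994 to 74519299) and in replicate 2 it was 296 bp (74519073 to 74519368). They share the 227 bp printed above, 12706 bp from the Hoxd13 start. A further peak of 150 bp (74524623 to 74524772), over a noncoding part of a Hoxd11 exon, was found in replicate 1 and not in replicate 2. These were the knockout peaks of the cluster, and all their bases were also marked in both wild-type libraries. The widths are near the narrowest of these lists (150 bp), and a minimum width of 1000 bp removed all of them.

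Just upstream, Evx2 had a wide peak in the knockout as well. Over its coding exons both knockout libraries of experiment 1 had a peak, of 1871 bp in replicate 1 (74494747 to 74496617) and 2081 bp in replicate 2 (74494515 to 74496595). These overlay 88.3% and 98.0% of the 2120 bp marked there in both wild-type libraries. The Evx2 promoter was covered to 82.8% and 84.1% in wild type and to 24.0% and 29.6% in the knockout. In experiment 2 it had no peak in any wild-type or knockout library, and in the Ezh1 and Ezh2 rescues it was covered to 100% and 57.6%. Among 9 genes neighboring the cluster, Evx2 and Chn1, a Rac GTPase-activating protein, were marked in both wild-type libraries of experiment 1. These 2 of 9 were close to the share of all genes, 20.1%. Evx2 alone had a peak in both knockout libraries, 1 of 9 beside 4.47% of all genes.

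**Figure D3:**
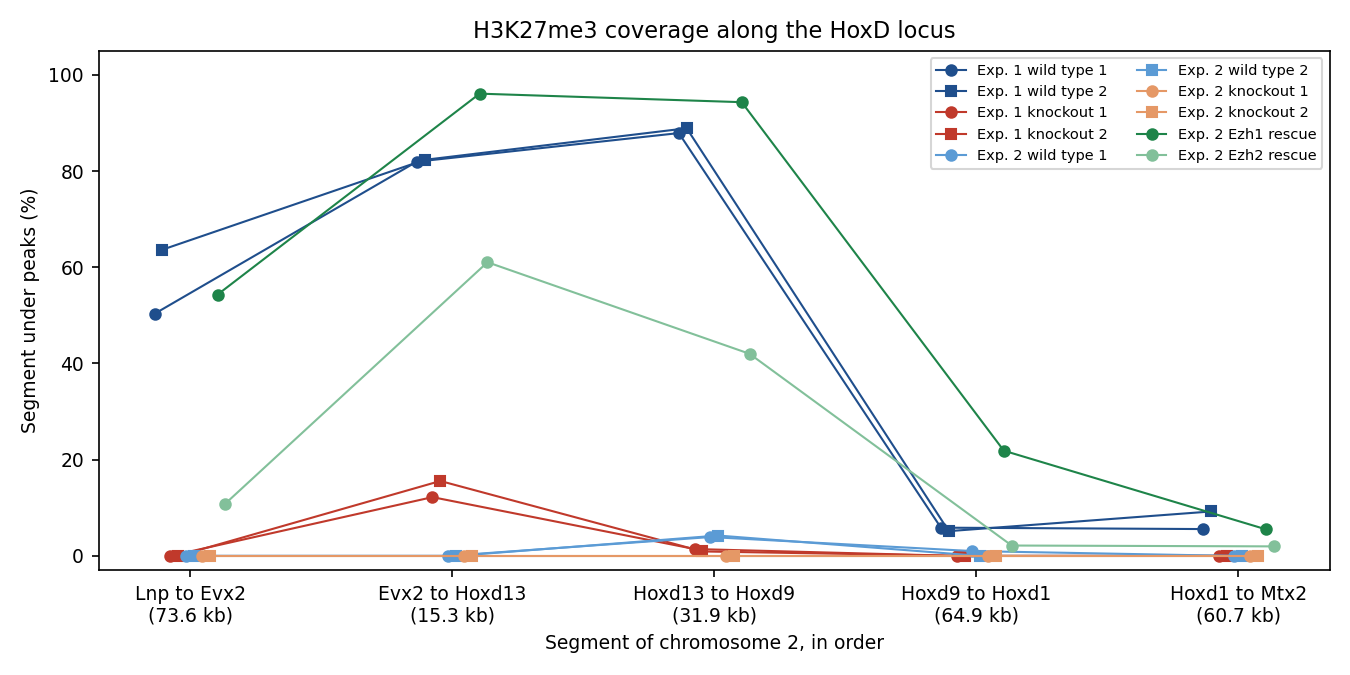
Percent of 5 consecutive segments of chromosome 2 under H3K27me3 peaks (y axis), from Lnp to Mtx2 with each segment's length in kb, with 1 line for each library. Wild-type libraries of experiment 1 and the Ezh1 rescue are high up to Hoxd9 and below 22% after it. The knockout of experiment 1 stays above 10% only in the segment Evx2 to Hoxd13, which includes the Evx2 gene.

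Experiment 2 called far less of the cluster in wild type. Peaks covered 1.96% and 1.39% (1.68% ± 0.402, SD, n = 2), and the knockout libraries had no peak. The difference of 1.68 percentage points again reached the smallest two-sided p, 0.33, of an exact permutation test of 2 against 2 libraries. Hoxd11 was the only member marked in both wild-type libraries (1 of 9, against 3.11% of all genes), with 12% and 16.0% of its promoter covered. A peak of 600 bp (74516701 to 74517300) in replicate 1 and of 800 bp (74516601 to 74517400) in replicate 2 ended 149 and 49 bp before the Hoxd11 start. A pair of peaks over another Hoxd11 exon shared 350 bp (74522351 to 74522700), and replicate 1 had a further peak of 650 bp in an intron of Hoxd3. The peak before Hoxd11 lay in the wild-type block of experiment 1 and did not overlap the knockout stretch. Of the bases marked in either replicate 41.3% were marked in both. These lists were short, with 18284 and 13417 peaks against 82566 and 82407 in wild type of experiment 1, and relative to the genome HoxD was covered 3.50 and 3.29 times as much as the average base. The knockout lists held 29 and 382 peaks, with none on chromosome 2 within 43 Mb of the cluster, so the absence at HoxD was part of a nearly empty list.

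The pre-rescue cells were made to follow Polycomb targets when Ezh1, an enzyme of lower activity, stands in for Ezh2, with re-expressed Ezh2 as the control. Both lists had peaks at HoxD, and peaks covered more bases in that of Ezh1. As the lists hold no heights, this is an extent of called peaks and not an amount of H3K27me3. For the amount the paper reported the opposite direction. Its Western blot showed less H3K27me3 with Ezh1 than with Ezh2, and along the genome the mark was uniformly weaker with Ezh1. Peaks covered 45.7% of the cluster with Ezh1 and 15.3% with Ezh2, a difference of 30.4 percentage points between 1 library each, with no replicate check. Wild type of the same experiment had 1.96% and 1.39%, in lists that covered 0.561% and 0.424% of the genome. By Western blot, the paper found global H3K27me3 with the Ezh2 pre-rescue to be similar to wild type. The Ezh1 rescue had 14 peaks, the widest of 14650 and 14400 bp, and the Ezh2 rescue 11 peaks, the widest of 3000 bp over Hoxd12. All 14800 bp marked with Ezh2 were also marked with Ezh1, of whose marked bases they made up 33.4%. The whole lists differed in the same direction: 9.64% of the genome was covered with Ezh1 and 3.04% with Ezh2, and relative to this HoxD was covered 4.74 and 5.03 times as much as the average base. By the methods, the reads of the Ezh1 rescue were scaled down according to the DNA recovered in the ChIP, and those of the Ezh2 rescue were not. The lists do not show whether peaks were called on scaled reads, and the part of this step in the difference was not tested.

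By gene, the AbdB-class promoters were marked in both rescues. Hoxd12, Hoxd11 and Hoxd10 were covered to 100% with Ezh1 and to 76.0%, 88.0% and 67.9% with Ezh2. Hoxd13 was covered to 97.0% and 23.0%, and Hoxd9 to 72.3% and 14.0%. Hoxd3 was covered to 60.0% and Hoxd1 to 21.0% in the Ezh1 rescue, and neither had a peak in the Ezh2 rescue. Hoxd8 and Hoxd4 had none in either. The counts were 7 of 9 members in the Ezh1 rescue, beside 28.2% of all genes, and 5 of 9 in the Ezh2 rescue, beside 18.8%. The TSS base lay under a peak for 5 members with Ezh1 and for 3 with Ezh2. Within 1000 bp of the TSS the Ezh2 rescue marked 3 members, Hoxd12, Hoxd11 and Hoxd10.

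Set beside the wild type of experiment 1, the Ezh1 rescue covered 99.7% of the 28742 bp marked in both of those libraries and the Ezh2 rescue 46.6%. Of the bases marked at HoxD in the Ezh1 rescue, 27.2% lay outside the peaks of either wild-type library, and 4.20% did so in the Ezh2 rescue. From Hoxd9 to Hoxd1 coverage was 21.9% with Ezh1 and 2.16% with Ezh2. Between Hoxd13 and Hoxd9 it was 94.3% and 42.0%. As a share of the marked bases of each list, the Hoxd13 to Hoxd9 segment held 67.9% with Ezh1 and 90.5% with Ezh2.

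By share of the interval from first to last gene, HoxD was the least covered of the 4 HOX clusters in every wild-type library. The HoxA, HoxB and HoxC intervals were 105509, 173941 and 115741 bp long. By promoters HoxD was not lowest in wild type of experiment 1, with 6 of 9 genes marked (median coverage 55.4%). HoxA had 5 of 11 (median 0), HoxC 5 of 9 (76.9%) and HoxB 8 of 10 (88.5%), beside 20.1% of all genes. In experiment 2 HoxD had the fewest marked, 1, against 3, 3 and 5. In experiment 1 HoxA was covered to 33.7% and 34.9%, HoxC to 47.1% and 46.8%, and HoxB to 68.7% and 71.8%. In experiment 2 the values were 4.69% and 3.93%, 18.3% and 10.4%, and 21.8% and 15.1%. Over the 4 wild-type libraries of both experiments HoxD minus HoxA averaged -2.07 percentage points, HoxD minus HoxC -13.4 and HoxD minus HoxB -27.1. Each was negative in 4 of 4 libraries (exact sign-flip permutation test, two-sided p = 0.125, which is the least 4 libraries can give, and 0.125 after Benjamini-Hochberg adjustment over the 3 comparisons). The gap to HoxA was the smallest, at -0.863 in wild-type replicate 1 of experiment 1. In the Ezh1 rescue the order changed, with HoxD 9.08 percentage points above HoxA, while in the Ezh2 rescue HoxD was lowest, at 15.3% beside 28.7% for HoxA, 35.4% for HoxC and 57.5% for HoxB. In the knockout of experiment 1 HoxA retained 6.23% and 8.58%, with the Hoxa9 promoter covered to 71.4% and 100%, where the paralog Hoxd9 had no peak.

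**Figure D4:**
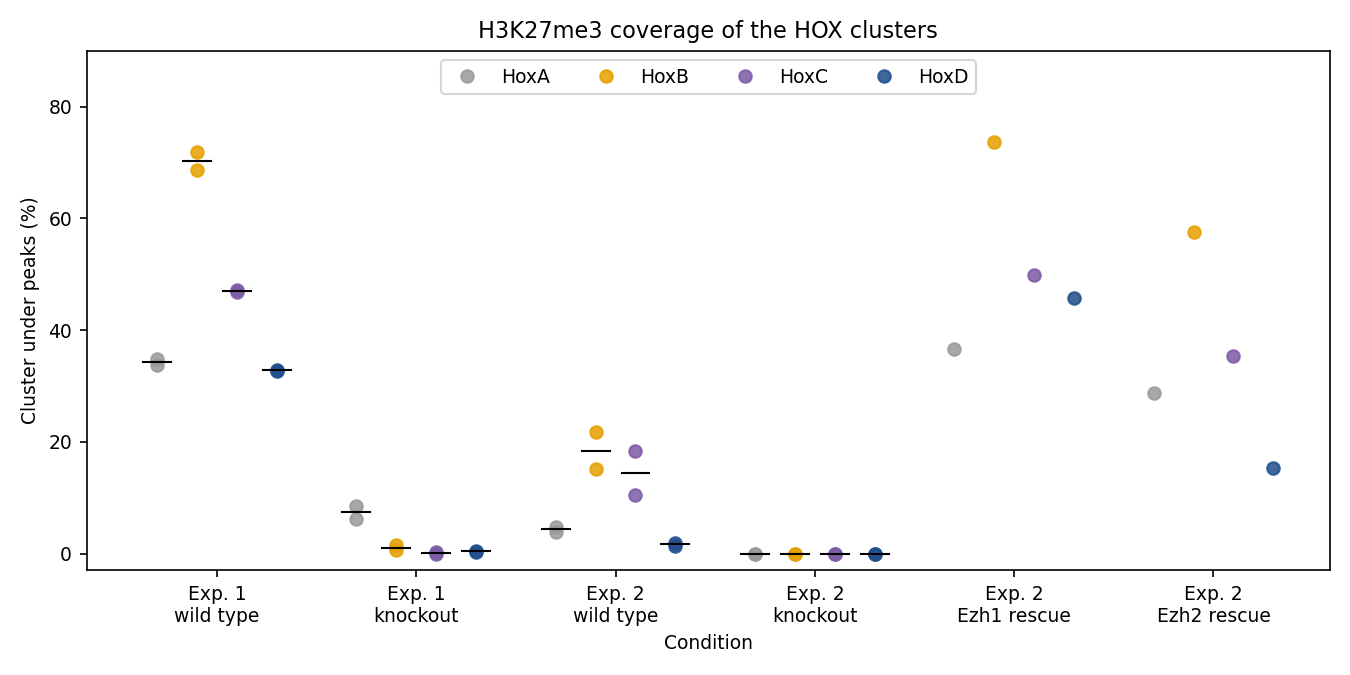
Percent of each HOX cluster under H3K27me3 peaks (y axis) in the 6 conditions (x axis), with points for libraries and black bars for means of 2 libraries. HoxD lies lowest in wild type of both experiments and in the Ezh2 rescue, and above HoxA in the Ezh1 rescue.

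Genes that work with HOX proteins and markers of the cell type were read from lists. Of 9 HOX cofactors, homeodomain partners that bind DNA with HOX proteins, Meis3 (87.2% and 75.4% of its promoter) and Pknox2 (43.7% and 32.7%) were marked in both wild-type libraries of experiment 1, and no cofactor had a knockout peak. This is near the background, since 20.1% of all genes were marked in both and 92.4% of marked genes had no knockout peak. Of 8 fibroblast markers none was marked in wild type, and Vim, an intermediate filament gene, had a peak in both knockout libraries (34.0% and 25.5%). Outside the HOX clusters, the genes whose promoter coverage over the 10 libraries came closest to the mean of the 9 members were Hapln2, Kcng2, Gm10181, Ltb4r2 and Acer1, with mean absolute differences of 1.63 to 2.33 percentage points.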

How the data were processed

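H3K27me3 ChIP-seq was done on micrococcal nuclease-treated chromatin. According to the methods, the authors aligned reads to mm9, removed duplicates, down-sampled each library to a common number, applied coefficients to the knockout and Ezh1 rescue, and called peaks per sample against input DNA. Tools named in the submitters' processing notes include MACS2 2.0.10 for peaks, and Bowtie 0.12.8 and Bowtie2 2.1.0 for alignment. The deposited lists give peak positions only, without score, height or count, and the number of reads under a peak is unknown. The 2 input samples were not analysed here.

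All peaks lay within the chromosomes of the mm9 reference. Duplicate lines were counted once and mitochondrial peaks left out. Coverage was the percent of a region's bases under peaks. Promoters extended 2500 bp each way from the TSS, and a promoter with at least 1 bp under a peak counted as marked. Libraries, grouped by their labels, were the replicates in exact permutation tests. The code gave 0 mismatches with a brute-force computation over 3000 simulated regions. Alternatives were other promoter windows and TSS, a minimum width, a minimum coverage, joined peaks, a flanked cluster, leaving out each library and pairing by replicate number. The text names all 9 members, their peaks in the knockout, the widest peaks, fixed lists of neighbors, cofactors and fibroblast markers, and the 5 genes most alike in coverage. A further gene list is not reported here. The members and lists were chosen with earlier results of these data known. Calculations used Python 3.11.15, NumPy 2.4.6 and SciPy 1.17.1, and figures matplotlib 3.10.9.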

Additional observations from a re-analysis of the deposited data

How the results depend on the processing

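Of 84 recomputed values for the cluster and its counts of members, 78 were classed as the same and none changed direction. Counts were classed so within 1.5 times, and the rescue difference only if it barely moved. Any other difference was classed so unless it came to 0 or changed sign, so shifts in its size were not judged. With only peaks of at least 1000 bp, the wild-type minus knockout difference of experiment 2 and its count of marked members came to 0, since its wild-type peaks are all narrower, and the Ezh1 minus Ezh2 rescue difference was 31.7 percentage points. That difference was 29.1 with 10 kb more on either side of the cluster. With promoters of 5000 bp on either side, 2 members were marked in wild type of experiment 2, and with 1000 bp 3 were marked in the Ezh2 rescue. With at least 10% of the promoter required, Hoxd11 no longer counted as marked in the knockout.

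Leaving out each library, the wild-type minus knockout difference ranged from 32.3 to 32.5 in experiment 1 and from 1.39 to 1.96 in experiment 2, and the AbdB-class minus other difference from 26.3 to 52.4. HoxD minus HoxA ranged from -2.47 to -1.84, minus HoxB from -31.6 to -23.1 and minus HoxC from -14.9 to -12.4. Members marked in both wild-type libraries numbered 6 to 7 in experiment 1, and those without a knockout peak 5 to 6. With a replicate block the differences stayed at 32.4 and 1.68, with exact permutation p = 0.5, the smallest that 2 pairs allow; the labels give no more than a shared number. Of the coverage values of single members, 34 of 45 stayed within the replicate spread.

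Lists without heights give the position of the mark and not its amount, the depth under each peak is unknown, and with 2 libraries a group no test reaches the usual threshold.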
